A study of Mus musculus with 36 samples.

Results

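The transcripts described here are those of 7 scavenger receptors of macrophages: Msr1, Mrc1, Cd36, Scarb1, Scarb2, Olr1 and Colec12. They were chosen by gene name from a table of 27562 genes, and each name matched 1 row. RNA-seq covered sorted lung cells of chimeric mice, alveolar macrophages (AΦ) and monocytes, in 36 libraries that form 12 groups of 3. The hosts were male C57BL/6J mice (CD45.2) that were lethally irradiated with a lead block over the chest, given busulfan and transplanted with marrow of B6.SJL-Ptprc a Pepc b/BoyJ donors (CD45.1), so that all groups share this conditioning. The mice then breathed filtered air (FA) or concentrated ambient PM2.5, fine airborne particles, for 4 or 32 weeks, and the FA groups serve as controls.

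At 4 weeks the groups were tissue-resident AΦ (TR-AΦ, CD45.2) and CD45.2 monocytes, each after FA and after PM2.5. At 32 weeks they were TR-AΦ (CD45.2), bone marrow-derived AΦ (BM-AΦ, CD45.1), CD45.2 monocytes and CD45.1 monocytes, again after FA and after PM2.5. AΦ were gated as CD64+ cells high in CD11c and low in CD11b, and monocytes as Ly6G- MHC II- cells low in CD64 and high in CD11b. BM-AΦ of 4 weeks were not analysed here. The labels of the 32-week libraries number the cells rather than name their origin. The number 2 was read as CD45.2 and the number 1 as CD45.1, from the headings of the study's AΦ tables, and for monocytes this reading is by analogy. The animal behind each library is not given, but 3 mice were used per exposure and time. AΦ and monocytes, and CD45.1 and CD45.2 cells, of 1 exposure and time may therefore come from the same lungs. The main tests below treat the libraries as independent, without pairing by animal.

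Scavenger receptors are surface proteins that bind modified lipoproteins, microbial surfaces, dying cells and particles, and most of them carry their cargo into endosomes. Class A receptors (Msr1, Colec12) have a collagen-like stalk, class B receptors (Cd36, Scarb1, Scarb2) span the membrane at both ends, and Olr1 and the mannose receptor Mrc1 bind through C-type lectin or lectin-like domains. AΦ of the mouse clear inhaled particles and surfactant lipid from the airspace, and Mrc1 is one of their surface markers.

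Values are FPKM, read fragments scaled for transcript length and for the size of the library, which the authors computed with Cufflinks. The sum of FPKM ran from 1839577 to 3339020 over the libraries. The table gives no counts, so the depth behind each value is unknown. Of 8 AΦ markers 7 were in the table and their summed level ran from 834 to 1291 FPKM in AΦ and from 15.1 to 125 FPKM in monocytes. The 7 monocyte markers summed to 10.3 to 131 FPKM in AΦ and to 679 to 2377 FPKM in monocytes. Two-sided tests used limma on log2(FPKM + 1) over every gene whose mean reached 1 FPKM in the libraries fitted, and a gene was called at a Benjamini-Hochberg adjusted p under 0.05. All 7 receptors passed that filter in each of the 3 models, and none was at 0 in any library. Colec12 passed in the monocyte model through CD45.2 monocytes of 32 weeks (mean 6.30 FPKM). The other monocyte populations had means of 0.867 and 0.515 FPKM. The study gives the replicates as biological. With 3 libraries a group an exact permutation test cannot go below p = 0.1.

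Several libraries stood apart. Replicate 2 of TR-AΦ at 4 weeks, in FA and in PM2.5, had summed monocyte markers of 131 and 109 FPKM, against 16.7 to 22.8 FPKM in the other 4 libraries. Replicate 2 of monocytes at 4 weeks had summed neutrophil markers (5 of 5 in the table) of 379 FPKM in FA and 1102 FPKM in PM2.5, against 43.7 to 78.8 FPKM in the other 4. CD45.2 monocyte replicate 1 of 32 weeks of PM2.5 had the most AΦ markers of that cell type, 125 FPKM. In the comparisons of cell type or of time, where leaving these libraries out moved a receptor by over 1.5 times or changed its call, the value without them is given. For PM2.5 against FA and for the gene lists it is not given.

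All 7 genes are protein coding. On mm10 the loci are chr8:39581685-39642673 (Msr1, minus strand), chr2:14229392-14332057 (Mrc1, plus strand), chr5:17781690-17888747 (Cd36, minus strand), chr5:125277087-125341094 (Scarb1, minus strand), chr5:92441314-92505637 (Scarb2, minus strand) and chr6:129485244-129507165 (Olr1, minus strand). The microRNA gene Mir511 lies inside Mrc1 on the same strand and was listed at a mean of 130 FPKM in AΦ and at 0 in monocytes. Its reads and those of the Mrc1 transcript may be shared.

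The stretches before the RefSeq start sites of Mrc1, Olr1, Scarb2 and Cd36 (GRCm38.p6) are shown because only these 4 of the 7 genes had one available. Of them Mrc1, Olr1 and Scarb2 were higher in AΦ in every comparison with monocytes, and Cd36 was not. Each stretch holds the 250 bases before the start, read 5′ to 3′ along the gene, Mrc1 on the plus strand and the others on the minus strand. The Cd36 stretch lies inside the locus given above and so precedes an internal start, while the others lie at the 5′ end of the loci given. In the GENCODE annotation Scarb2 reaches to 92506833, so its stretch lies inside the annotated gene. The end of the Mrc1 stretch runs into its locus, which begins at 14229392. Capitals mark matches, on either strand, to the PU.1 core GAGGAAG, AP-1 TGANTCA, the E-box CACGTG, C/EBP TTNCNNAA, the Sp1 GC box GGGCGG and the TATA box TATAAA.
Mrc1, chr2:14229164-14229413: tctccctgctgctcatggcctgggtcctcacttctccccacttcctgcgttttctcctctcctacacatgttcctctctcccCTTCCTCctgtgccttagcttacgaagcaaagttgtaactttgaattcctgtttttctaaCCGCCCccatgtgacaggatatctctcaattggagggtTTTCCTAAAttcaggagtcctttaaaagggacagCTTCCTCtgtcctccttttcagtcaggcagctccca
Olr1, chr6:129507166-129507415: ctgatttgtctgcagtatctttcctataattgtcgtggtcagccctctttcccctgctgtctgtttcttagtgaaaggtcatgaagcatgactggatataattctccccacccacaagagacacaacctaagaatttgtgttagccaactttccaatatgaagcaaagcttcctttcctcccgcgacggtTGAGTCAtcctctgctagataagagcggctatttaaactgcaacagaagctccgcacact
Scarb2, chr5:92505658-92505907: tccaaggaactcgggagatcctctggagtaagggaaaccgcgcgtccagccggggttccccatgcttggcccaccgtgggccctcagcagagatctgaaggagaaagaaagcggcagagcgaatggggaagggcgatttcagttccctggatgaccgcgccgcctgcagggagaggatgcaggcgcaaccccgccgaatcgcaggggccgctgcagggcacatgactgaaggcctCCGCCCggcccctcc
Cd36, chr5:17835897-17836146: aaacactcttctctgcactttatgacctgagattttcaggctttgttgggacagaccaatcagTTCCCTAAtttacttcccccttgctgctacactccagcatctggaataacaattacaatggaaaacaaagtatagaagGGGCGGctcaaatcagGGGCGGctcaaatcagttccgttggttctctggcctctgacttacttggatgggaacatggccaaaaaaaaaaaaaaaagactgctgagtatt
Mrc1 held 2 PU.1 cores, both on the opposite strand, beginning 168 and 36 bases before the start, with a GC box and a pair of overlapping C/EBP matches between them. Olr1 held 1 AP-1 match beginning 60 bases before the start and nothing else of the set. Scarb2 held 1 GC box, and Cd36 held 2 GC boxes beginning 109 and 93 bases before the start and 1 C/EBP match. Of 27025 RefSeq promoters of the same length 10.4% held a PU.1 core, 6.87% an AP-1 match, 6.05% the E-box, 36.9% a C/EBP match, 32.9% a GC box and 13% a TATA box. A match describes the letters and is not evidence of binding. The table of promoters used here gave 4 of the 7 genes.

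The level of the receptors differed by gene and cell type. In AΦ the order of mean level, in FPKM over 18 libraries, was Mrc1 (230), Scarb2 (171), Olr1 (166), Cd36 (114), Scarb1 (41.1), Colec12 (9.22) and Msr1 (4.42). In monocytes it was Cd36 (118), Scarb2 (81.7), Scarb1 (53.8), Msr1 (38.9), Mrc1 (36.5), Olr1 (16.1) and Colec12 (2.56). Mrc1 thus held the highest mean of the set in AΦ, at the 97.9th percentile of all genes listed, and Msr1 the lowest, at the 68.5th. Scarb2, Scarb1 and Cd36 lay between the 93.0th and 97.5th percentiles in both cell types.

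**Figure D1:**
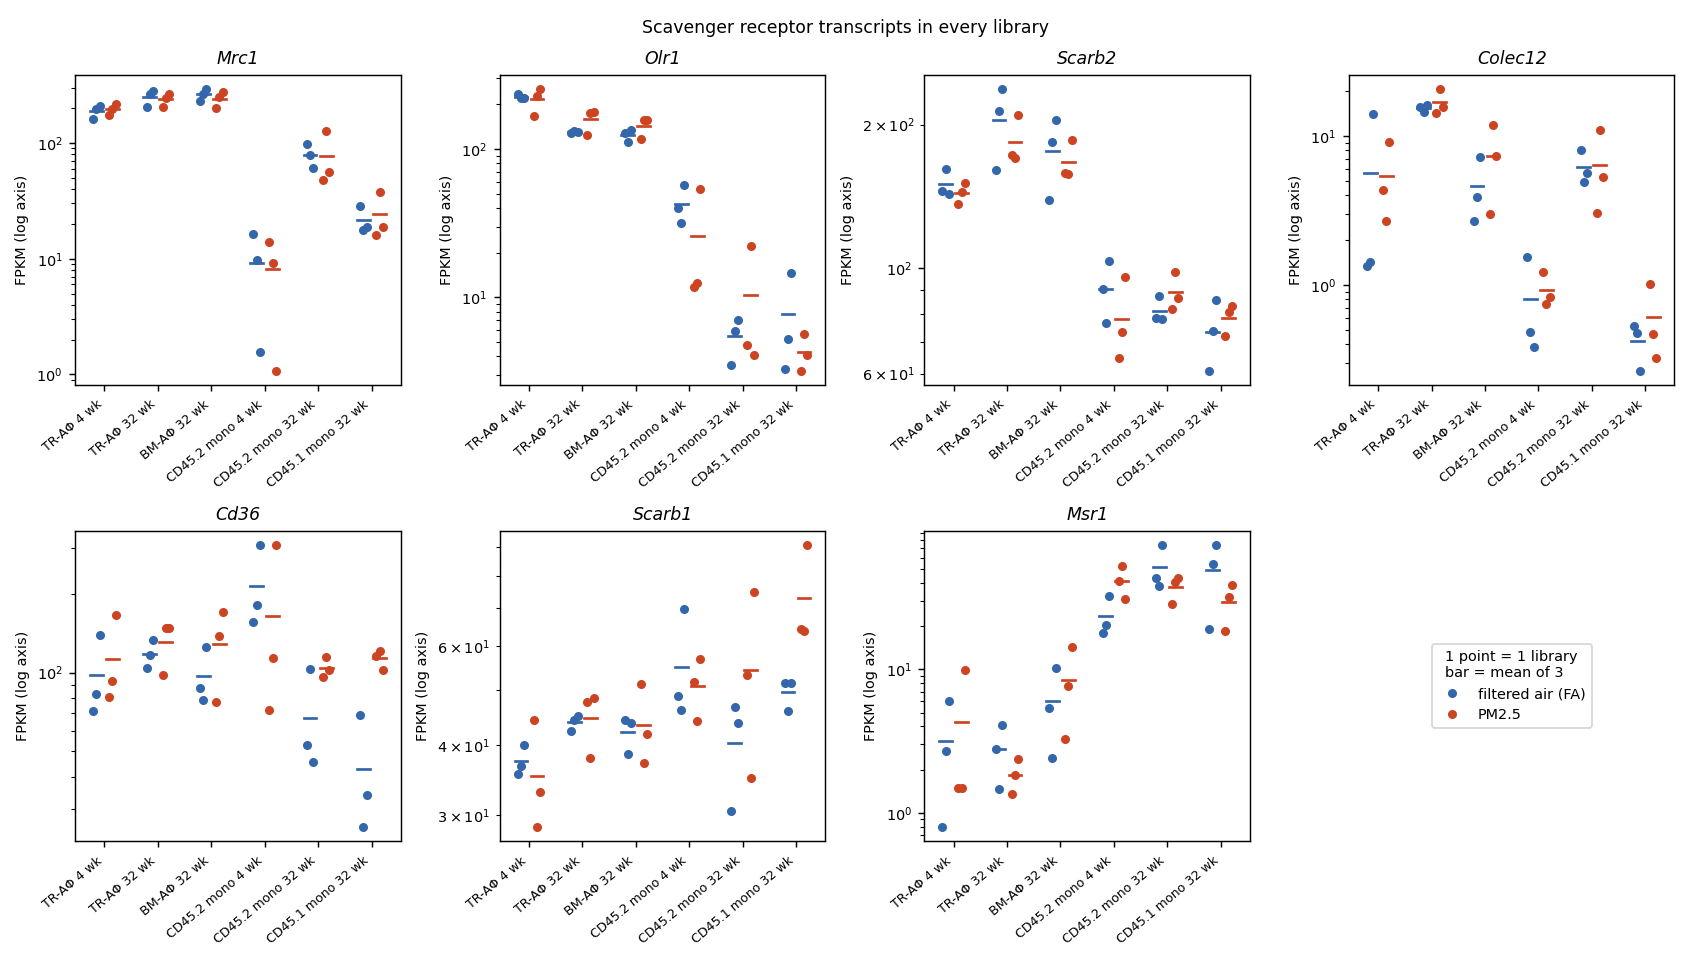
FPKM of each receptor (vertical log axes, which differ between panels) in each of the 36 libraries, by population on the horizontal axis, with FA in blue and PM2.5 in red; 1 point is 1 library and the bar is the mean of 3. Mrc1, Olr1 and Scarb2 sit higher in every AΦ library than in every monocyte library and Msr1 sits lower, whereas Cd36 and Scarb1 overlap between the cell types.

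AΦ were compared with monocytes of the same origin and time, pooling FA and PM2.5, in 3 comparisons that show which receptors mark which cell type. At 4 weeks all 7 receptors were called, 4 higher in AΦ and 3 lower, where 48.2% of all genes tested were called (22.6% higher and 25.5% lower). Among CD45.2 cells of 32 weeks 5 were called, 4 higher and 1 lower, where 47.3% of genes were called (23.6% higher and 23.7% lower). Among CD45.1 cells of 32 weeks 6 were called, 4 higher and 2 lower, where 50.9% of genes were called (27.1% higher and 23.8% lower). So large a share of all genes differed between these cell types that a call by itself says little about the receptors. Their median log2 difference was 0.81, 1.17 and 1.16 in the 3 comparisons, against -0.02, 0 and 0.03 over all genes tested. The same 4 receptors, Mrc1, Olr1, Scarb2 and Colec12, were higher in AΦ each time, and Msr1 was lower each time.

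Mrc1, the mannose receptor, takes up glycoproteins with mannose, fucose or sulphated sugars. Its lowest, median and highest values were 162, 197 and 218 FPKM in TR-AΦ at 4 weeks, 205, 256 and 281 FPKM in TR-AΦ at 32 weeks and 201, 255 and 295 FPKM in BM-AΦ. In monocytes they were 1.07, 9.50 and 16.5 FPKM at 4 weeks (CD45.2), 47.8, 69.6 and 126 FPKM at 32 weeks (CD45.2) and 16.1, 18.7 and 38.0 FPKM at 32 weeks (CD45.1). The AΦ populations overlapped one another and lay above every monocyte library, and CD45.2 monocytes of 32 weeks lay above the other monocytes without overlap. The log2 difference between AΦ and monocytes was 4.72 ± 0.39 (SE) at 4 weeks, 1.71 ± 0.39 among CD45.2 cells of 32 weeks and 3.46 ± 0.39 among CD45.1 cells (adjusted p = 6.54e-11, 0.000588 and 2.37e-08, limma). In means of FPKM these were 22.2-fold, 3.15-fold and 11.03-fold.

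Olr1, also called LOX-1, is a lectin-like receptor of oxidised low-density lipoprotein. Lowest, median and highest values were 167, 225 and 255 FPKM in TR-AΦ at 4 weeks, 124, 131 and 179 FPKM in TR-AΦ at 32 weeks and 112, 131 and 158 FPKM in BM-AΦ. In monocytes they were 11.7, 35.7 and 56.9 FPKM at 4 weeks, 3.47, 5.38 and 22.1 FPKM in CD45.2 cells of 32 weeks and 3.18, 4.66 and 14.5 FPKM in CD45.1 cells. Every AΦ library was above every monocyte library, while neighbouring populations within each cell type overlapped. The log2 difference was 2.88 ± 0.34, 4.27 ± 0.34 and 4.42 ± 0.34 (SE) in the 3 comparisons (adjusted p = 7.06e-08, 5.13e-11 and 2.68e-11, limma), or 6.42-fold, 18.3-fold and 22.3-fold in means of FPKM.

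Scarb2 encodes LIMP-2, a membrane protein of lysosomes. It ran from 136 to 238 FPKM in AΦ and from 60.8 to 104 FPKM in monocytes, and the ranges did not meet. The log2 difference was 0.81 ± 0.12, 1.17 ± 0.12 and 1.16 ± 0.12 (SE; adjusted p = 2.13e-06, 4.89e-09 and 5.63e-09, limma), or 1.74-fold, 2.28-fold and 2.25-fold.

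Colec12 (chr18:9707648-9877995, plus strand) is a class A receptor whose stalk ends in a C-type lectin domain. It ran from 1.34 to 20.8 FPKM in AΦ and from 0.264 to 10.9 FPKM in monocytes, and these ranges overlapped. By mean level CD45.2 monocytes of 32 weeks (3.04 to 10.9 FPKM) came next after TR-AΦ of the same time (14.3 to 20.8 FPKM), without overlap, and overlapped BM-AΦ (2.69 to 11.9 FPKM). Within each pair of populations it was higher in AΦ, by 1.48 ± 0.37, 1.31 ± 0.37 and 2.08 ± 0.37 (SE) on the log2 scale (adjusted p = 0.00137, 0.00416 and 2.84e-05, limma). At such low levels the added 1 FPKM understates the change, which was 6.35-fold, 2.57-fold and 11.7-fold in means of FPKM. Without both replicate 2 libraries of TR-AΦ at 4 weeks (14.1 and 9.14 FPKM) the first was 2.83-fold (log2 difference 0.84, adjusted p = 0.0203, limma).

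Msr1, scavenger receptor A, binds modified low-density lipoprotein and bacterial lipids. It moved the other way: lowest, median and highest values were 0.791, 2.09 and 9.98 FPKM in TR-AΦ at 4 weeks, 1.35, 2.09 and 4.11 FPKM in TR-AΦ at 32 weeks and 2.42, 6.51 and 14.3 FPKM in BM-AΦ. In monocytes they were 17.9, 31.8 and 52.6 FPKM at 4 weeks, 28.5, 42.1 and 73.6 FPKM in CD45.2 cells of 32 weeks and 18.5, 35.4 and 73.9 FPKM in CD45.1 cells. No AΦ library reached the lowest monocyte library, and populations of 1 cell type overlapped. Msr1 was lower in AΦ by a log2 difference of -3.04 ± 0.40, -3.78 ± 0.40 and -2.32 ± 0.40 (SE; adjusted p = 4.43e-07, 1.14e-08 and 2.59e-05, limma), with 8.71-fold, 19.4-fold and 5.47-fold higher means in monocytes. Without both replicate 2 libraries of TR-AΦ at 4 weeks, the first of these was 20.2-fold (log2 difference -3.64, adjusted p = 1.71e-08, limma). The 2 class A receptors of the set therefore ran in opposite directions between the cell types. The 2 replicate 2 libraries of TR-AΦ at 4 weeks, which carried monocyte markers, also had the highest Msr1 of that population, 6.06 and 9.98 FPKM. The part of those markers in the Msr1 level was not tested.

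Cd36 binds thrombospondin, oxidised lipoproteins and long-chain fatty acids. It did not separate the cell types: it ran from 71.5 to 171 FPKM in AΦ and from 25.6 to 308 FPKM in monocytes, and its highest population by mean was monocytes at 4 weeks (72.1, 169 and 308 FPKM as lowest, median and highest). The log2 difference was -0.73 ± 0.30 at 4 weeks, 0.60 ± 0.30 among CD45.2 cells and 0.69 ± 0.30 (SE) among CD45.1 cells of 32 weeks (adjusted p = 0.0476, 0.106 and 0.0603, limma). The call at 4 weeks was lost without a filter on low values (adjusted p = 0.0787), with only the libraries compared (0.148), on quantile normalization (-0.41, adjusted p = 0.308) and TPM scaling (-0.41, adjusted p = 0.339), and without both replicate 2 monocyte libraries of that time (-0.29, adjusted p = 0.436), whose Cd36 was 308 FPKM in each. At 32 weeks Cd36 was called higher in AΦ among CD45.2 cells with only the libraries compared (adjusted p = 0.0383), a replicate block (0.0379) or a term for replicate 2 (0.0329), and among CD45.1 cells on TPM scaling (1.08, adjusted p = 0.00843), with the block (0.0182) or with that term (0.0146, limma). The exact permutation p at 4 weeks, two-sided on FPKM with n = 6 and 6, was 0.0801. At 32 weeks the same test gave 0.0260 among CD45.2 cells and 0.165 among CD45.1 cells, all without adjustment.

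Scarb1 encodes SR-BI, the receptor for cholesterol ester of high-density lipoprotein. It ran from 28.5 to 51.3 FPKM in AΦ and from 30.4 to 90.7 FPKM in monocytes, with every population overlapping its neighbour. It was lower in AΦ at 4 weeks (-0.53 ± 0.15, adjusted p = 0.00549) and among CD45.1 cells (-0.48 ± 0.15, adjusted p = 0.0104, limma), and the difference among CD45.2 cells of 32 weeks was -0.04 ± 0.15 (SE; adjusted p = 0.879). Both calls were lost on TPM scaling, at -0.21 (adjusted p = 0.382) and -0.09 (adjusted p = 0.722, limma), and the call at 4 weeks also on quantile normalization (-0.27, adjusted p = 0.140) and without both replicate 2 monocyte libraries (-0.40, adjusted p = 0.0544). That scaling moved the median difference of all genes from -0.02, 0 and 0.03 to 0.20, 0.14 and 0.35, and the share of calls that were higher in AΦ from 47.0%, 49.9% and 53.2% to 66.6%, 61.5% and 74.6%. Mrc1, Olr1, Scarb2, Colec12 and Msr1 kept direction and call in all 3 comparisons under TPM scaling.

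**Figure D2:**
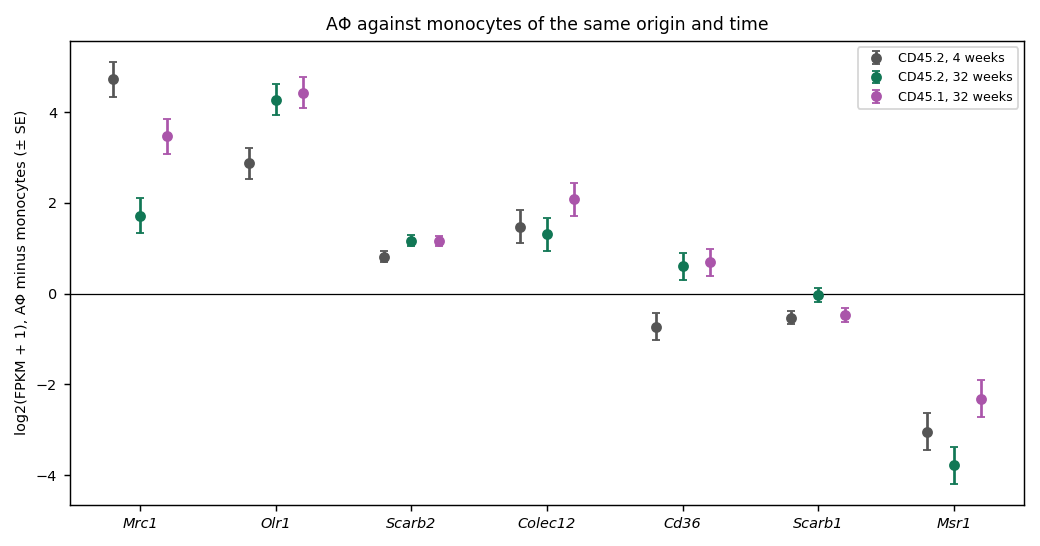
Log2(FPKM + 1) difference, AΦ minus monocytes, for each receptor on the horizontal axis, with 1 point per comparison (CD45.2 at 4 weeks, CD45.2 at 32 weeks, CD45.1 at 32 weeks) and bars of 1 SE. Mrc1, Olr1, Scarb2 and Colec12 lie above 0 and Msr1 below it in all 3 comparisons, and the Mrc1 points spread from 1.71 to 4.72.

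Genes that work with these receptors were described from 5 lists, by counts in the same fits. Of 16 genes of lipoprotein uptake and lipid disposal 15 were tested, and 10, 10 and 11 were higher in AΦ and 2, 1 and 1 lower in the 3 comparisons. Over all genes 22.6%, 23.6% and 27.1% were higher and 25.5%, 23.7% and 23.8% lower, and the lists that follow stand beside the same shares. Their median log2 difference was 1.28, 1.91 and 2.04. Lpl, lipoprotein lipase, was at means of 183 against 6.55 FPKM at 4 weeks, and the sterol exporter Abcg1 at 508 against 47.2 FPKM. Nceh1, which hydrolyses cholesterol ester, was at 245 against 18.4 FPKM. Genes of the lysosome (9 of 9 tested) were higher in 5, 4 and 7 cases and lower in none. Among them at 4 weeks were Npc1, a cholesterol transporter of the lysosome, at 75.3 against 22.0 FPKM (log2 difference 1.73), and the tetraspanin Cd63 at 14.1 against 1.53 FPKM (2.63).

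Partners and ligand of Cd36 (9 of 9 tested) went both ways, with 3, 3 and 4 higher and 5, 4 and 4 lower. The ligand Thbs1, thrombospondin 1, was at a mean of 9.67 FPKM in AΦ against 532 FPKM in monocytes at 4 weeks (log2 difference -7.05), and the tetraspanin Cd9 was at 1589.8 against 133 FPKM (3.67). The kinase Fyn was at 10.6 against 49.5 FPKM (-2.04). Of 3 other genes of the mannose receptor family 1 was tested, Ly75, an endocytic receptor of dendritic cells and macrophages, and it was higher in AΦ each time (68.3 against 1.33 FPKM at 4 weeks). Of 14 other scavenger receptors 6 were tested. Of them 2, 3 and 2 were higher in AΦ and 0, 3 and 3 lower, with Marco, which binds inhaled particles, at 28.1 against 0.0284 FPKM and Cd68 at 452 against 347 FPKM at 4 weeks.

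The difference between cell types was then compared between 4 and 32 weeks within CD45.2 cells, by an interaction term. Of the 7 receptors 1 was called, where 7.88% of genes were called (44.8% of them higher, and 19.8% on TPM scaling): the Mrc1 difference was smaller at 32 weeks by 3.01 ± 0.55 on the log2 scale (interaction -3.01, adjusted p = 0.000775, limma). Without both replicate 2 monocyte libraries of 4 weeks, which had the least Mrc1, it was -2.17 (adjusted p = 0.000302). For Cd36 the interaction was 1.33 ± 0.43 (adjusted p = 0.0539) and for Olr1 1.40 ± 0.49 (SE; adjusted p = 0.0782). Cd36 was called without both replicate 2 libraries of TR-AΦ (1.63, adjusted p = 0.0206), and Olr1 without CD45.2 monocyte libraries PM2.5 replicate 1 and FA replicate 0 of 32 weeks (1.62, adjusted p = 0.0279, limma). Between origins at 32 weeks no receptor was called, where 1.08% of genes were called. An unadjusted p under 0.05 was reached by 2 receptors and by 1370 of 13307 genes. The receptors were Mrc1 at 1.75 ± 0.55 (adjusted p = 0.152) and Msr1 at 1.46 ± 0.57 (SE; adjusted p = 0.314, limma).

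In CD45.2 monocytes, 32 weeks were compared with 4 weeks, which differ in length of exposure, age and time since transplantation together. In bulk samples fewer cells of a type and less RNA per cell cannot be told apart. Of the 7 receptors 3 were called, 2 higher and 1 lower, where 14.9% of genes were called (7.06% higher and 7.83% lower). On TPM scaling the share of called genes that were higher went from 47.4% to 68.0%. Mrc1 rose from 16.5, 9.75 and 1.58 FPKM (FA) and 14.1, 9.25 and 1.07 FPKM (PM2.5) at 4 weeks to 97.8, 78.2 and 61.1 FPKM (FA) and 47.8, 126 and 56.1 FPKM (PM2.5) at 32 weeks. The 2 times did not overlap, and the log2 difference was 3.35 ± 0.51 (SE; adjusted p = 0.000793, limma), or 8.94-fold in means of FPKM. Replicate 2 was the lowest of its group in both exposures at 4 weeks.

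Colec12 rose in the same comparison from 1.55, 0.480 and 0.383 FPKM (FA) and 1.22, 0.741 and 0.830 FPKM (PM2.5) to 8.03, 4.92 and 5.60 FPKM (FA) and 3.04, 10.9 and 5.27 FPKM (PM2.5). Again the times did not overlap, and the log2 difference was 1.92 ± 0.25 (SE; adjusted p = 0.00031, limma), or 7.26-fold in means. Colec12 entered this test through the CD45.2 libraries of 32 weeks, where it is high. Olr1 fell from 39.7, 31.7 and 56.9 FPKM (FA) and 11.7, 12.5 and 53.7 FPKM (PM2.5) to 3.47, 5.97 and 6.99 FPKM (FA) and 4.78, 22.1 and 4.10 FPKM (PM2.5), by a log2 difference of -2.01 ± 0.45 (SE; adjusted p = 0.00809, limma). The ranges of Olr1 overlapped through 1 library, PM2.5 replicate 1 of 32 weeks at 22.1 FPKM, which is the library with the most AΦ markers. Without both replicate 2 libraries of 4 weeks, which held the neutrophil markers, the log2 differences were 2.51 for Mrc1, 1.82 for Colec12 and -1.55 for Olr1 (adjusted p = 0.00107, 0.00332 and 0.0480, limma). Cd36 had means of 190 FPKM at 4 weeks and 85.8 FPKM at 32 weeks (log2 difference -1.04 ± 0.34, adjusted p = 0.0526), and Msr1 32.6 and 44.7 FPKM (0.48 ± 0.31, adjusted p = 0.356, limma).

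In CD45.1 against CD45.2 monocytes of 32 weeks, a comparison that shares its CD45.2 libraries with the one over time, 1 receptor was called, where 0.669% of genes were called. Colec12 was lower in CD45.1 cells, at 0.528, 0.476 and 0.264 FPKM (FA) and 1.02, 0.472 and 0.326 FPKM (PM2.5), and no CD45.1 library reached the lowest CD45.2 library (3.04 FPKM). The log2 difference was -2.20 ± 0.25 (SE; adjusted p = 0.000435, limma), with a mean 12.2-fold higher in CD45.2 cells. Here too Colec12 had passed the filter through the CD45.2 libraries of 32 weeks. Mrc1 was at 28.3, 17.7 and 18.8 FPKM (FA) and 16.1, 38.0 and 18.6 FPKM (PM2.5) in CD45.1 cells, all below the lowest CD45.2 library (47.8 FPKM), yet it was not called (-1.71 ± 0.51, adjusted p = 0.199, limma; exact permutation p = 0.00216, two-sided, the smallest that 6 against 6 can give). The permutation p is not adjusted, and the share of all genes without overlap was not computed for this comparison. The separation of Mrc1 by itself therefore says little. For Scarb1 the difference was 0.39 ± 0.19 (SE; adjusted p = 0.532).

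Markers of interstitial macrophages (5 of 5 in the table) moved with Mrc1 and Colec12. Cd163, itself a scavenger receptor for haemoglobin, was at 29.3 to 130 FPKM in CD45.2 monocytes of 32 weeks, 2.60 to 5.45 FPKM in CD45.1 monocytes and 0.0784 to 3.48 FPKM in monocytes of 4 weeks. Lyve1 was at 7.88 to 32.7 FPKM, 0.731 to 3.89 FPKM and 0.0584 to 3.13 FPKM in the same order, and Folr2 at 10.7 to 26.3 FPKM, 0 to 1.66 FPKM and 0 to 2.49 FPKM. Cd209f followed them at 3.22 to 10.6 FPKM against at most 0.813 and 0.681 FPKM. F13a1, the most abundant gene of the list, did not, so the summed list overlapped between the populations (184 to 415 FPKM, 105 to 512 FPKM and 135 to 438 FPKM). Folr2 was at 0 in 1 library of each of the other monocyte populations, and Cd209f in 2 of each. Of the AΦ markers, Plet1 moved with both receptors as well, at 7.86 to 53.9 FPKM in CD45.2 monocytes of 32 weeks, 0.733 to 5.74 FPKM in CD45.1 monocytes and 0.364 to 2.12 FPKM at 4 weeks, and so did Krt79, at 1.09 to 7.84 FPKM against at most 0.581 and 0.102 FPKM. The other 5 AΦ markers overlapped with at least 1 of these populations or were lower, and the summed AΦ markers overlapped with both (25.4 to 125 FPKM, 15.1 to 52.1 FPKM and 50.1 to 113 FPKM). The part of the interstitial and AΦ markers in the Mrc1 and Colec12 results was not tested.

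Summed platelet markers moved with both receptors too, at 73.0 to 289 FPKM in CD45.2 monocytes of 32 weeks against 6.73 to 33.0 FPKM and 1.60 to 14.9 FPKM, and Pf4 held nearly all of the sum, at 73.0 to 288 FPKM. The defining platelet marker Gp9 was at 0 in all 12 monocyte libraries of 32 weeks. With CD45.2 PM2.5 replicate 1 and FA replicate 0 of 32 weeks left out, which had the highest summed markers of AΦ and of interstitial macrophages in that population, the Mrc1 and Colec12 calls against 4 weeks (3.05 and 1.62 on the log2 scale, adjusted p = 0.0104 and 0.00142) and the Colec12 call against CD45.1 cells (-1.91, adjusted p = 0.00207, limma) remained. The filter on low values was not recomputed for this. Leaving libraries out thus did not undo the entry of Colec12 through the CD45.2 libraries of 32 weeks. Cd36 and Olr1 moved with genes other than these markers: the nuclear receptor Pparg ran from 14.6 to 54.5 FPKM in monocytes at 4 weeks and from 2.48 to 14.3 FPKM in CD45.2 monocytes at 32 weeks. Treml4, a marker of Ly6C-low monocytes, ran from 105 to 341 FPKM at 4 weeks and from 9.61 to 60.1 FPKM at 32 weeks. Other monocyte genes overlapped between these times: Ly6c2 ran from 164 to 516 FPKM and from 127 to 322 FPKM, and Cx3cr1 from 124 to 257 FPKM and from 22.2 to 248 FPKM. The part of Pparg and Treml4 in the Cd36 and Olr1 levels was not tested.

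**Figure D3:**
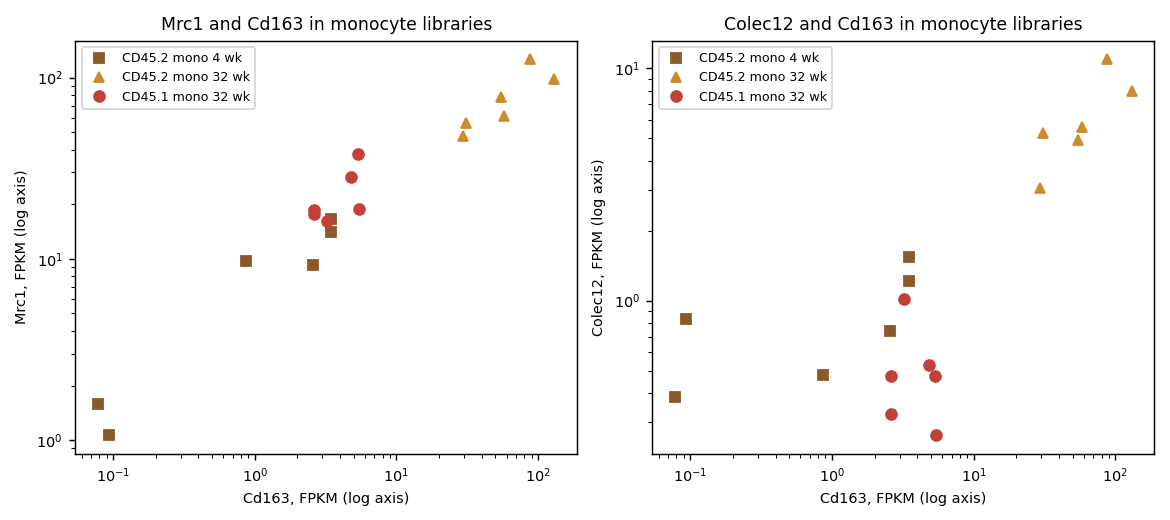
FPKM of Mrc1 (left) and Colec12 (right) on the vertical axis against FPKM of Cd163 on the horizontal axis, both on log axes, in the 18 monocyte libraries, with 1 symbol per library. The 6 CD45.2 libraries of 32 weeks stand apart at 29.3 to 130 FPKM of Cd163, 47.8 to 126 FPKM of Mrc1 and 3.04 to 10.9 FPKM of Colec12.

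Among the lists, 4 of the 6 other scavenger receptors tested rose in CD45.2 monocytes from 4 to 32 weeks and none fell, where 7.06% of all genes rose and 7.83% fell, which is the background for each list here. The leading genes were Cd163 (log2 difference 4.63), Stab1 (3.81), a class H scavenger receptor, and Cxcl16 (2.13), a chemokine that binds oxidised lipoprotein in its membrane form. Of the lipid list 4 rose and 3 fell, led by the fatty acid binding protein Fabp4 (-2.19), the sterol exporter Abca1 (1.84) and Pparg (-1.80). Of the lysosomal list 3 rose and none fell, with Cd63 at 2.72, and of the Cd36 list 1 rose, Cd81 (2.07), and 2 fell, Fyn (-1.10) and Tlr2 (-0.89). Ly75 rose by 0.98. Against CD45.1 monocytes, 2 of the 6 other scavenger receptors were called, Cd163 (-3.57) and Stab1 (-3.34), both lower in CD45.1 cells, where 0.669% of all genes were called, and no gene of the other 4 lists was called.

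TR-AΦ of 32 weeks were compared with TR-AΦ of 4 weeks in the same way. Of the 7 receptors 2 were called, 1 higher and 1 lower, where 5.91% of genes were called (2.56% higher and 3.35% lower). On TPM scaling the share of called genes that were higher went from 43.3% to 18.9%. Colec12 was at 1.34, 1.43 and 14.1 FPKM (FA) and 4.34, 2.70 and 9.14 FPKM (PM2.5) at 4 weeks and at 15.6, 14.5 and 16.2 FPKM (FA) and 14.3, 20.8 and 15.6 FPKM (PM2.5) at 32 weeks. The 2 times did not overlap, although FA replicate 2 of 4 weeks came close, and the log2 difference was 1.75 ± 0.44 (SE; adjusted p = 0.0341, limma), or 2.94-fold in means. The 2 libraries with monocyte markers had the highest Colec12 of their groups at 4 weeks, whereas monocytes of that time had at most 1.55 FPKM. Without those 2 libraries the difference was 2.39 (adjusted p = 0.000770, limma), or 6.59-fold in means. The Colec12 call was lost without a filter on low values (adjusted p = 0.0745), on TPM scaling (0.0624), with only the libraries compared (0.0757) and without any 1 of 9 of the 18 AΦ libraries.

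Olr1 was at 234, 219 and 221 FPKM (FA) and 167, 228 and 255 FPKM (PM2.5) at 4 weeks and at 127, 131 and 131 FPKM (FA) and 124, 175 and 179 FPKM (PM2.5) at 32 weeks. Only the lowest library of 4 weeks, PM2.5 replicate 0, fell within the range of 32 weeks, and the log2 difference was -0.61 ± 0.13 (SE; adjusted p = 0.0129, limma), or 1.53-fold higher in the mean of 4 weeks. Mrc1 was at means of 193 and 245 FPKM at 4 and 32 weeks (0.34 ± 0.12, adjusted p = 0.118) and Scarb2 at 147 and 194 FPKM (0.39 ± 0.12, adjusted p = 0.0698, limma). Msr1 was at means of 3.75 and 2.31 FPKM at 4 and 32 weeks (-0.26 ± 0.46, adjusted p = 0.784, limma). Its direction in means reversed without both replicate 2 libraries of 4 weeks. The mean of 4 weeks was then 1.61 FPKM, and that of 32 weeks was 1.43-fold higher. Within FA alone no receptor was called, where 0.782% of genes were called. An unadjusted p under 0.05 was reached by 4 receptors and by 1535 of 12665 genes. Within PM2.5 alone no receptor was called either, where 1.05% of genes were called (25.6% of them higher, and 8.64% on TPM scaling). There 3 receptors and 1928 of 12665 genes had an unadjusted p under 0.05. Olr1 differed by -0.79 ± 0.18 in FA (adjusted p = 0.0634) and -0.44 ± 0.18 in PM2.5 (adjusted p = 0.252), and Colec12 by 1.90 ± 0.62 (adjusted p = 0.212) and 1.60 ± 0.62 (SE; adjusted p = 0.237, limma). Without both replicate 2 libraries of 4 weeks Colec12 was called in each, at 2.78 in FA and 1.99 in PM2.5 (adjusted p = 0.00730 and 0.0489, limma). Of the lists, 1 of the 6 other scavenger receptors was called lower, Stab1 (-1.42), 2 of the 9 lysosomal genes were called higher, among them Laptm5 (0.50), and 1 of the 15 lipid genes was called higher, Abcg1 (0.45), and none was called in the other 2 lists.

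BM-AΦ were compared with TR-AΦ at 32 weeks to ask whether origin sets the receptor levels. No receptor was called by limma, where 0.316% of genes were called (42.5% of them higher in BM-AΦ, and 54.1% on TPM scaling). An unadjusted p under 0.05 was reached by 2 receptors and by 944 of 12665 genes. Colec12 was at 2.69, 3.90 and 7.23 FPKM (FA) and 2.99, 11.9 and 7.30 FPKM (PM2.5) in BM-AΦ, all below the lowest TR-AΦ library (14.3 FPKM), with a log2 difference of -1.43 ± 0.44 (adjusted p = 0.295, limma; exact permutation p = 0.00216). Here too the permutation p is not adjusted and the share of all genes without overlap was not computed. Msr1 was at 5.36, 2.42 and 10.2 FPKM (FA) and 3.27, 7.65 and 14.3 FPKM (PM2.5) in BM-AΦ and at 2.77, 1.45 and 4.11 FPKM (FA) and 1.35, 1.83 and 2.36 FPKM (PM2.5) in TR-AΦ. These ranges overlapped, with a log2 difference of 1.17 ± 0.46 (SE; adjusted p = 0.526, limma; exact permutation p = 0.0152, two-sided). Monocyte markers summed to 15.98 to 65.7 FPKM in BM-AΦ and 10.3 to 20.6 FPKM in TR-AΦ, and their part in the Msr1 values was not tested. Mrc1 was at means of 253 and 245 FPKM, Cd36 at 113 and 125 FPKM, Scarb1 at 42.8 and 44.2 FPKM, Scarb2 at 171 and 194 FPKM and Olr1 at 134 and 145 FPKM. In both cell types the mean of Colec12 at 32 weeks was higher in CD45.2 than in CD45.1 cells, and the difference was called in monocytes only, which does not show that it differed between the cell types. Of the lists only Marco was called, at means of 2.38 FPKM in BM-AΦ and 42.7 FPKM in TR-AΦ (-3.78).

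PM2.5 was compared with FA within each of the 6 populations. No receptor was called by limma in any of them, where 0.0079%, 0% and 0.0158% of genes were called in TR-AΦ at 4 weeks, TR-AΦ at 32 weeks and BM-AΦ, and 0.00778%, 0% and 0% in the monocytes of 4 weeks, of 32 weeks with CD45.2 and of 32 weeks with CD45.1. An unadjusted p under 0.05 was reached by 1 receptor in CD45.1 monocytes and by 0 in each of the other populations. Over all genes tested an unadjusted p under 0.05 was reached by 372, 396, 259, 272, 547 and 609 genes in the same order. The data therefore do not show an effect of PM2.5 on these transcripts, and they do not show its absence either.

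In AΦ the 7 differences ran from -0.10 ± 0.16 (Scarb1) to 0.41 ± 0.62 (Colec12) in TR-AΦ at 4 weeks and from -0.36 ± 0.65 (Msr1) to 0.27 ± 0.18 (Olr1) in TR-AΦ at 32 weeks. In BM-AΦ they ran from -0.12 ± 0.17 (Mrc1) to 0.51 ± 0.62 (SE; Colec12). The well measured receptors Mrc1, Scarb1 and Scarb2 had errors of 0.17, 0.16 and 0.17 on the log2 scale, and Msr1 and Colec12, at low levels, of 0.65 and 0.62. Colec12 in TR-AΦ at 4 weeks was at 1.34, 1.43 and 14.1 FPKM after FA and 4.34, 2.70 and 9.14 FPKM after PM2.5. The last value of each is replicate 2, which carried monocyte markers. With 1 library left out in turn its difference ran from -0.049 to 1.30.

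In monocytes the differences were wider, from -1.01 ± 0.64 (Olr1) to 0.81 ± 0.44 (Msr1) at 4 weeks and from -0.42 ± 0.44 (Msr1) to 0.72 ± 0.48 (Cd36) in CD45.2 cells of 32 weeks. Olr1 in monocytes at 4 weeks was at 39.7, 31.7 and 56.9 FPKM after FA and 11.7, 12.5 and 53.7 FPKM after PM2.5. The last value of each is replicate 2, which carried neutrophil markers. With 1 library left out in turn this difference ran from -1.70 to -0.65. In CD45.1 monocytes Cd36 was at 68.7, 25.6 and 33.9 FPKM after FA against 116, 121 and 103 FPKM after PM2.5. All PM2.5 libraries were above all FA libraries, and the log2 difference was 1.51 ± 0.48 (SE; unadjusted p = 0.00694, adjusted p = 0.946, limma). Scarb1 was at 51.4, 46.0 and 51.6 FPKM after FA against 64.4, 63.8 and 90.7 FPKM after PM2.5 there, also without overlap (0.53 ± 0.26, adjusted p = 0.946), and Msr1 had the lowest difference, -0.57 ± 0.44 (adjusted p = 0.996, limma). For Cd36 and Scarb1 the exact permutation p was 0.1, two-sided, the smallest that 3 against 3 can give. The share of all genes without overlap was not computed, so these separations by themselves say little about the receptors. Treml4 was at 28.1 to 59.6 FPKM in the FA libraries and 82.0 to 119 FPKM in the PM2.5 libraries of these cells, and its part in the Cd36 values was not tested. Ly6c2 (148 to 376 FPKM after FA, 190 to 292 FPKM after PM2.5) and Cx3cr1 (13.6 to 100 FPKM, 91.1 to 245 FPKM) overlapped between the exposures.

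The effect of PM2.5 was also compared between 32 and 4 weeks in TR-AΦ and between BM-AΦ and TR-AΦ. No receptor was called by limma in either interaction, where 0.0079% and 0.0158% of genes were called. An unadjusted p under 0.05 was reached by 0 receptors in each, and by 380 and 240 genes. The 7 interactions ran from -0.54 ± 0.92 (Msr1) to 0.35 ± 0.25 (Olr1) in the first and from -0.08 ± 0.25 (Olr1) to 0.77 ± 0.92 (SE; Msr1) in the second. No gene of the 5 lists was called in any comparison of PM2.5 with FA.

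**Figure D4:**
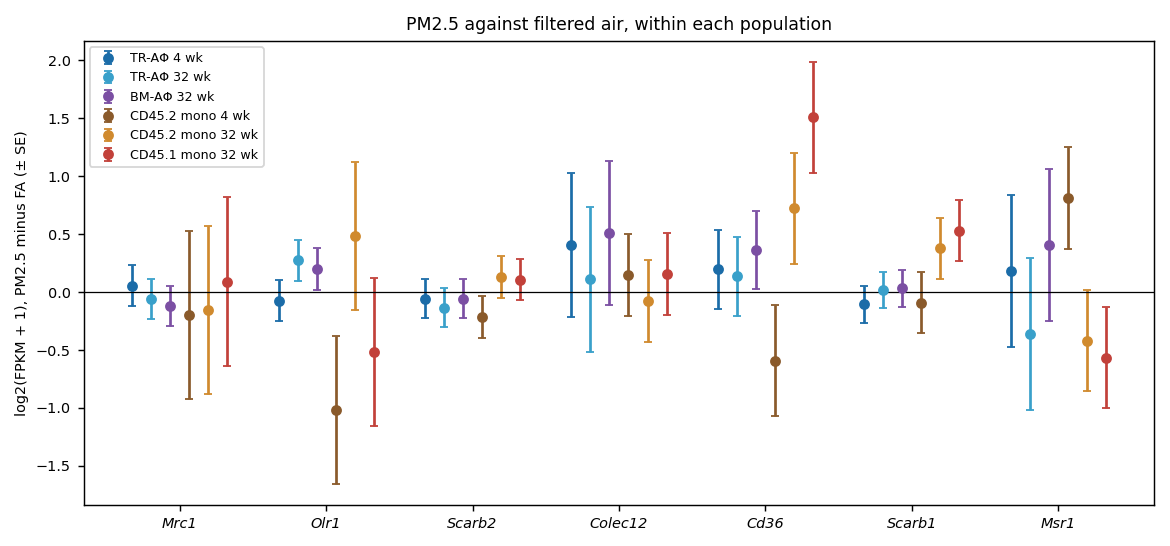
Log2(FPKM + 1) difference, PM2.5 minus FA, for each receptor on the horizontal axis, with 1 colour per population and bars of 1 SE from limma. The point farthest from 0 is Cd36 in CD45.1 monocytes at 1.51, and the next is Olr1 in monocytes at 4 weeks at -1.01.

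The genes most like each receptor were found by Pearson correlation of log2(FPKM + 1) over the 18 libraries of the cell type where its mean was higher, as a description over libraries that share exposure, time and origin groups. For Cd36 in monocytes these were Lair1 (r = 0.95), Pparg (0.94) and Rps6ka2 (0.93). For Msr1 in monocytes they were Nxpe5 (0.91), Stard7 (0.90) and Clcc1 (0.90), and for Scarb1 in monocytes Arl6ip5 (0.88), Sash3 (0.87) and Hpse (0.87). In AΦ they were Atp6v0d2 (0.92), Tm9sf2 (0.92) and Nus1 (0.91) for Mrc1, and 4931406C07Rik (0.95), Ermp1 (0.92) and Hipk2 (0.92) for Scarb2. For Olr1 in AΦ they were Cebpg (0.94), Peli1 (0.93) and Gm44667 (0.91), and for Colec12 Rnf157 (0.88), Slc39a2 (0.88) and Sh3bgrl2 (0.86).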

How the data were processed

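AΦ and monocytes were sorted by flow cytometry, and libraries were made with a SMARTer kit. Per the study's methods reads were trimmed with TrimGalore, aligned to mm10 with STAR under GENCODE annotation and summarised with Cufflinks. The authors deposited FPKM per gene and library, normalized for exon length and fragments mapped, with no counts. Symbols and loci came from the same table, and strands from GENCODE.

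Groups were tested with limma 3.58.1 (R 4.3.3, empirical Bayes with trend) on log2(FPKM + 1), after a filter of a mean of at least 1 FPKM, which left 12665 genes in AΦ, 12856 in monocytes and 13307 in both together. AΦ, monocytes and both together were 3 models of 18, 18 and 36 libraries. Benjamini-Hochberg adjustment was within each of 19 comparisons. Exact permutation tests (scipy 1.17.1, two-sided) used FPKM of the groups compared. The fit was tested on simulated data. The 7 receptors and the 5 lists were chosen with earlier results of these data known. Named genes were the receptors, up to 3 genes of each list with the largest change past the threshold, cell type markers and the 3 genes most like each receptor. The alternatives were a pseudocount of 0.1, no filter, quantile normalization, TPM scaling with 0.5 added, only the libraries compared, a replicate block, a term for replicate 2, no trend and leaving out libraries. Protein sequences were not used here. Values of 1 gene of the lists are not reported here.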

Additional observations from a re-analysis of the deposited data

Results flagged for a closer look

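The difference in Mrc1 between AΦ and monocytes of CD45.2 origin changed with time: the interaction of cell type with 32 against 4 weeks was -3.01 on the log2 scale (adjusted p = 0.000775, limma). It was chosen for a closer look because a test of the difference between the times passed the threshold. Mrc1 was at means of 193 and 245 FPKM in TR-AΦ at 4 and 32 weeks and 8.70 and 77.8 FPKM in CD45.2 monocytes. The interstitial macrophage markers Cd163, Lyve1, Folr2 and Cd209f were higher in the same monocytes at 32 weeks, and so were the AΦ markers Plet1 and Krt79. F13a1, the most abundant interstitial marker, did not follow, and the summed interstitial list overlapped between the times (184 to 415 FPKM at 32 weeks, 135 to 438 FPKM at 4 weeks). The part of these markers in the Mrc1 result was not tested.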

How the results depend on the processing

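With a setting changed, 141 of 169 counts of receptors called equalled the main count and 151 stayed within 1.5 times of it, and 511 of 549 single values kept direction and side of the threshold. With 1 library left out these were 379 and 411 of 432 counts and 1500 of 1566 single values. Within that tolerance, AΦ against monocytes at 4 weeks gave 6 without a filter or with only the libraries compared and 5 on quantile normalization, on TPM scaling or without both replicate 2 monocyte libraries (main value 7), among CD45.2 cells of 32 weeks 6 with only the libraries compared, a block or a replicate 2 term (main value 5), and among CD45.1 cells 7 with the block or that term (main value 6). The interaction of cell type with time called 3 receptors with a replicate block and with a term for replicate 2, and 2 without both replicate 2 libraries of TR-AΦ at 4 weeks or without 2 CD45.2 monocyte libraries of 32 weeks (main value 1). The interaction with origin called 1 with only the libraries compared (main value 0). TR-AΦ of 32 against 4 weeks gave 1 without a filter, on TPM scaling and with only the libraries compared, and 4 with a replicate block (main value 2). Within FA it gave 1 with only the libraries compared, 2 with a block, 1 with a replicate 2 term and 1 without both replicate 2 libraries, and within PM2.5 1 with that term and 1 without those libraries (main value 0 in each). BM-AΦ against TR-AΦ gave 1 with the replicate 2 term (Colec12, adjusted p = 0.0461, limma; main value 0), and CD45.1 against CD45.2 monocytes gave 2 with a block and with that term (Mrc1, adjusted p = 0.00265 and 0.00664, limma; main value 1). The causes were not tested. On TPM scaling Scarb1 changed sign in AΦ against monocytes among CD45.2 cells of 32 weeks (0.14) and Olr1 in the PM2.5 effect in BM-AΦ against TR-AΦ (0.0098).

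The replicate numbers were not taken to pair the libraries: over 66 pairs of groups none had all 3 correlations of same-numbered libraries over 0.1. The median was 0.03 (lowest -0.10, highest 0.21) against -0.01 for other numbers. This rule cannot exclude a structure shared by libraries of the same number. Mrc1 rose from replicate 0 to 1 to 2 in every AΦ group, and the block raised the genes called in TR-AΦ over time from 748 to 1308. The main fit leaves the number out. The alternatives that left out 2 libraries together were chosen after seeing the data.

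With 1 library left out in turn, the count called ran from 1 to 3 for the interaction with time, 0 to 1 for that with origin, 1 to 3 for TR-AΦ over time, 0 to 1 within FA, 6 to 7, 5 to 6 and 6 to 7 for AΦ against monocytes (4 weeks, CD45.2 and CD45.1) and 3 to 4 for monocytes over time. Single log2 differences that changed their call or sign ran from -0.96 to -0.44 (Cd36, AΦ against monocytes at 4 weeks, the call lost for 23 of 36 libraries), 0.49 to 0.78 (Cd36, CD45.2, 32 weeks), 0.54 to 0.88 (Cd36, CD45.1), -0.18 to 0.092 (Scarb1, CD45.2, 32 weeks), 1.04 to 1.56 and 1.05 to 1.75 (Cd36 and Olr1, interaction with time), 1.54 to 1.93 (Mrc1, interaction with origin), 0.33 to 0.47 and 1.52 to 2.19 (Scarb2 and Colec12, TR-AΦ over time), -0.80 to -0.76 and 1.44 to 2.78 (Olr1 and Colec12, within FA) and -1.27 to -0.75 (Cd36, monocytes over time). For PM2.5 against FA they ran from -0.28 to 0.032 and -0.049 to 1.30 (Scarb1 and Colec12, TR-AΦ, 4 weeks) and from -0.23 to 0.0033 (Mrc1, BM-AΦ), and for its interactions from -1.03 to 0.17 (Msr1, time) and -0.25 to 0.064 (Olr1, origin).

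Over all genes, the number called moved by over 1.5 times in these comparisons. It ran over the settings from 648 to 1808 (interaction with time, main 1049), 81 to 236 (with origin, 144), 339 to 1308 (TR-AΦ over time, 748), 14 to 198 (FA, 99), 18 to 381 (PM2.5, 133), 1090 to 2644 (monocytes over time, 1914), 22 to 98 (BM-AΦ, 40) and 44 to 157 (CD45.1 monocytes, 86). For PM2.5 it ran from 1 to 10, 0 to 1 and 2 to 10 in AΦ (main 1, 0 and 2), 1 to 11, 0 to 3 and 0 to 11 in monocytes (main 1, 0 and 0) and 1 to 4 and 2 to 5 in the interactions (main 1 and 2). The depth is unknown, and the levels of Msr1 in AΦ and of Colec12 are the least precise.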
